A study of Mus musculus with 24 samples.

Results

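Kcnn4, Sla, Htr2b, Slco2b1, Lad1, Trpm2 and Fpr1 are 7 of the 54532 features counted in mouse peritoneal macrophages. They were chosen by the fall of their counts with ONX-0914, an inhibitor selective for the LMP7 (PSMB8) subunit of the immunoproteasome, which was large in at least 1 of 3 activation states. The comparisons with and without the inhibitor chose these genes, so those values are given below as a description and carry no test. Messenger RNA was sequenced from 6 groups of 4 libraries. The groups were M1 cells (treated with LPS and IFN-γ) with ONX-0914 and M1 cells without it, M2 cells (treated with IL-4) with ONX-0914 and M2 cells without it, and M0 cells (labelled as control, with no polarizing agent) with ONX-0914 and M0 cells without it. Each library held RNA of 50000 cells pooled from 2 to 3 mice, while strain, sex, age, doses and treatment times are not stated in the labels used here. In pooled cells, fewer cells with a transcript and less of it per cell cannot be told apart.

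As background, all 7 products act at or near the cell surface or in signalling below it, but they belong to separate systems. Kcnn4 encodes KCa3.1, a potassium channel opened by calcium whose outward current keeps the membrane negative and so sustains calcium entry. Trpm2 encodes a calcium-permeable cation channel opened by ADP-ribose and oxidative stress. Htr2b (a serotonin receptor coupled to Gq) and Fpr1 (a receptor for formylated peptides of bacteria and mitochondria) are G protein-coupled receptors. Sla encodes SLAP, an adaptor that resembles Src but lacks a kinase domain and that brings ubiquitin ligases of the Cbl family to activated receptors. Slco2b1 encodes an uptake transporter for organic anions, and Lad1 encodes ladinin, a filament-associated protein known from epithelial basement membrane.

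Promoter windows show what lies around the annotated starts of these genes, which share a direction in M1 or M2 cells. RefSeq sequences on GRCm38.p6, each with 250 bases before and 50 bases after a start, matched 6 of the 7 genes in 8 windows. The windows of Kcnn4, Htr2b and Fpr1 and the most upstream of 3 for Slco2b1 are shown because these genes differ in the states in which they were counted and in the motifs that their windows hold. They read 5′ to 3′ on the strand of the gene, with motif matches in capitals. The Kcnn4 window is chr7:24370013-24370312 (plus strand), the Htr2b window chr1:86111931-86112230 (minus strand), the Slco2b1 window chr7:99711291-99711590 (minus strand) and the Fpr1 window chr17:17883890-17884189 (minus strand).
Kcnn4: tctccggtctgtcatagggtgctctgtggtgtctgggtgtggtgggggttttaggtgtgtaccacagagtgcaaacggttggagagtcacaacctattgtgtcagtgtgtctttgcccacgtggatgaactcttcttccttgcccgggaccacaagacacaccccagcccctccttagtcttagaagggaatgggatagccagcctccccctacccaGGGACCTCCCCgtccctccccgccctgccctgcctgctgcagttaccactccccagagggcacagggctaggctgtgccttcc
Htr2b: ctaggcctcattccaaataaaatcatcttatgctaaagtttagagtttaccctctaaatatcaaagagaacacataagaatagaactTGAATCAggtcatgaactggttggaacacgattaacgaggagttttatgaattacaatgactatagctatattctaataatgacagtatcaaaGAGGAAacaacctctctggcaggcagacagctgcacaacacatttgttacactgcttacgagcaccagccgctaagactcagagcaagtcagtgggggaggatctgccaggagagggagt
Slco2b1: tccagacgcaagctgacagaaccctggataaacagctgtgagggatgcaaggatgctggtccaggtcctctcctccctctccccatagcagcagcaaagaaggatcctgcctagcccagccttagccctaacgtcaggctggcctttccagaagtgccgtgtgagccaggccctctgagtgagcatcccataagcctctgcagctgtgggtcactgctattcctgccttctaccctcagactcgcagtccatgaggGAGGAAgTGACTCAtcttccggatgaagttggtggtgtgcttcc
Fpr1: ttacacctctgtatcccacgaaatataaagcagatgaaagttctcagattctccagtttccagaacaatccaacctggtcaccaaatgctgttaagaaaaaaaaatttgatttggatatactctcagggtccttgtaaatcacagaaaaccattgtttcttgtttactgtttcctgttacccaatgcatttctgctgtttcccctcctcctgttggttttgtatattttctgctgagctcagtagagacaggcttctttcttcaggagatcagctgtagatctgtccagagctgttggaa
The capitals in the Kcnn4 window are a pair of overlapping matches, on either strand, to an NF-kappaB motif that begins with GGG and ends with CC around 5 free bases, at -33 and -32 from the start. The Htr2b window holds the AP-1 motif TGANTCA at -163 and the PU.1 core GAGGAA at -70. In the Slco2b1 window the PU.1 core stood at 7 and the AP-1 motif at 14 bases after the start. No searched motif matched in the Fpr1 window. Both strands of all 32851 windows of 300 bases were searched. The AP-1 motif was in 2 of the 8 windows of these genes, beside 7.81% of all windows. The NF-kappaB motif was in 4 of 8, beside 50.8% of all windows, and 2 of those 4 were windows of Slco2b1. The PU.1 core was in 4 of 8, beside 28.3%, and 3 of those 4 were the windows of Slco2b1. The interferon-gamma activated site TTCNNNGAA was in 2 of 8 windows, both of Slco2b1, beside 8.3%. The core antioxidant response element TGACNNNGC was in 0 of 8, beside 12.4% (it shares its first letters with the AP-1 motif and can overlap it), and the interferon-stimulated response element, GAAA repeated after 2 free bases, in 0 of 8, beside 3.44%. GC content was 59.7% in the Kcnn4 window, 41% in that of Htr2b, 57% in that of Slco2b1 and 40% in that of Fpr1, and the median of all windows was 52.7%. A match of letters is a description of the window and no evidence of binding.

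Depth was even, with 18.2 to 22.9 counts per library in units of 1e6. Levels are given as CPM, counts per 1e6 counts after scaling the libraries by TMM (a scaling that holds most genes level between libraries). All 12 macrophage markers were counted in each group, and their summed level was lower with ONX-0914 without overlap. It was 9500 to 9980 CPM per library in M1 with ONX-0914 and 12000 to 14700 CPM in M1, 10500 to 11800 CPM in M2 with ONX-0914 and 13100 to 14500 CPM in M2, and 11100 to 12300 CPM in M0 with ONX-0914 and 13100 to 15200 CPM in M0. Most of that sum was Lyz2, which averaged 6190 to 10500 CPM per group and was lower with ONX-0914 in all 3 states. The other macrophage markers did not all move with it. In M0, Csf1r averaged 342 CPM with ONX-0914 and 384 CPM without it, while Cd68 averaged 2000 and 1880 CPM. Of 12 neutrophil markers, Ly6g, S100a9 and Retnlg had 0 counts in each group, and 4 passed the filter on low counts. Most of their sum of 49.1 to 161 CPM was Csf3r, which averaged 44 to 137 CPM per group. The sum over 16 T and NK cell markers, nearly all of it Il7r, was 686 to 729 CPM in M1 with ONX-0914 and 450 to 890 CPM in M1. It was 679 to 720 CPM in M2 with ONX-0914 and 941 to 1030 CPM in M2, and 790 to 855 CPM in M0 with ONX-0914 and 998 to 1050 CPM in M0. Cd3e, a T cell marker of that list, averaged 0.149 CPM or less in each group, so the sum describes Il7r. The summed level of 12 B cell markers, most of it Cd22, was 41.2 to 46.5 CPM in M1 with ONX-0914 and 81.6 to 94.7 CPM in M1. It was 60.7 to 68.8 CPM in M2 with ONX-0914 and 117 to 126 CPM in M2, and 61.9 to 67.5 CPM in M0 with ONX-0914 and 110 to 120 CPM in M0. The single B cell markers differed in the size of their change. In M0, Cd22 averaged 55.3 CPM with ONX-0914 and 85.6 CPM without it, and Cd79a 0.434 and 2.46 CPM. The sum over 11 mesothelium and fibroblast markers was 778 to 890 CPM in M1 with ONX-0914 and 780 to 977 CPM in M1. It was 810 to 952 CPM in M2 with ONX-0914 and 736 to 920 CPM in M2. M0 cells had 957 to 1110 CPM of it with ONX-0914 and 800 to 1050 CPM without it. These ranges overlapped in each state. The macrophage and B cell sums were lower with the inhibitor in all 3 states, and the T and NK cell sum in M2 and M0, as were most of the 7 genes. The part of these sums in the values of the 7 genes was not tested. Within M1, replicate 2 was unlike the other libraries, with a mitochondrial share of 0.30% where theirs was 1.07% to 1.14%. Log2 changes and calls of the 7 genes that rest on M1 libraries without ONX-0914 are therefore also given without it. Values of other genes in M1, and the list counts in M1, include it.

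**Figure D1:**
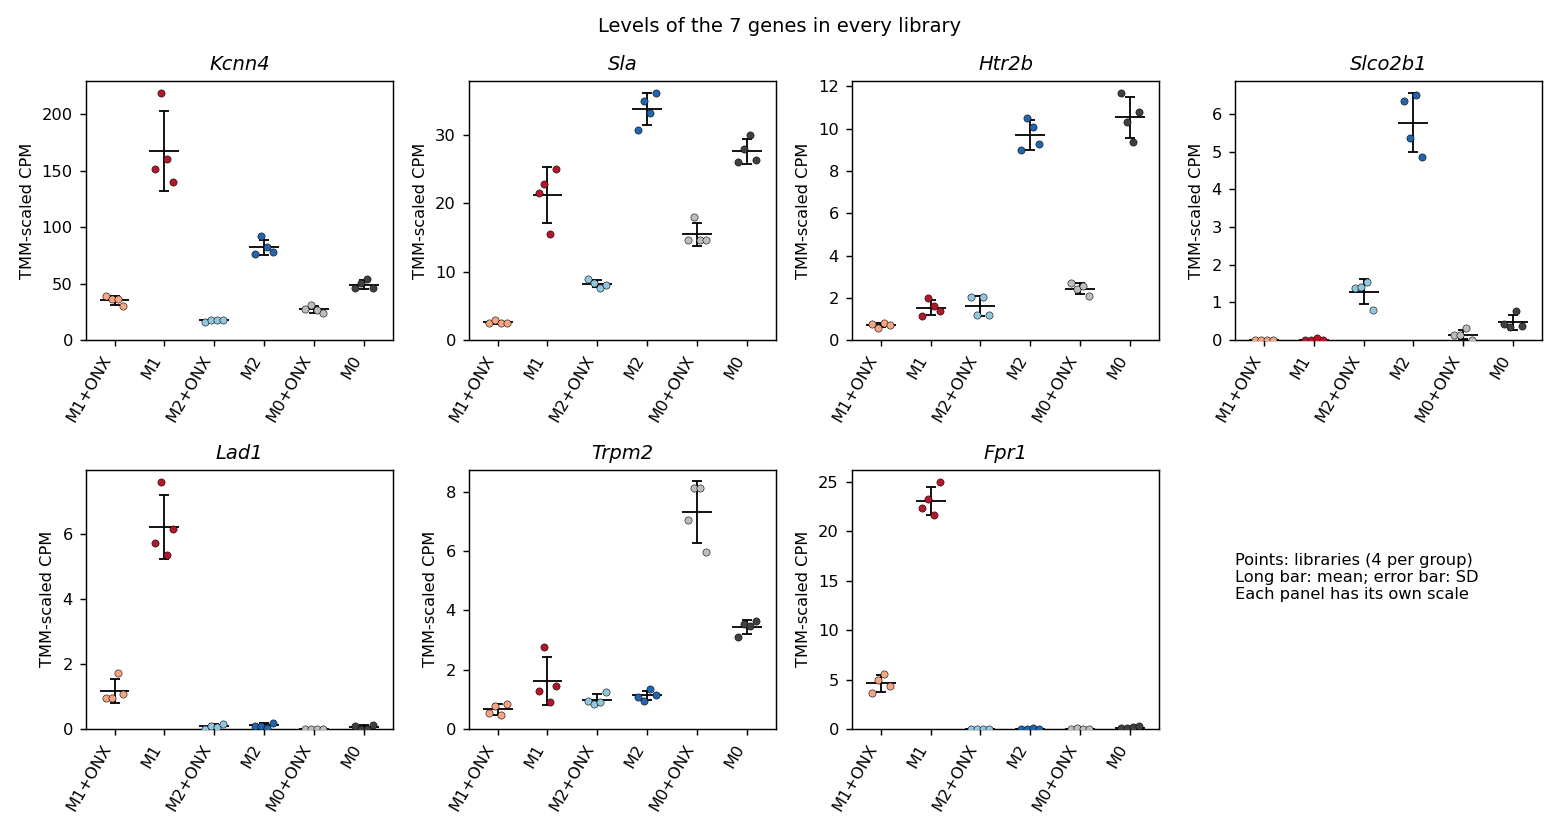
Level of each gene in CPM (vertical axis, own scale per panel) in the 6 groups, from M1 with ONX-0914 to M0. Points are the 4 libraries of a group, long bars the mean and error bars the SD. Kcnn4 averaged 35.4 CPM in M1 with ONX-0914 and 168 CPM in M1, while Trpm2 averaged 7.31 CPM in M0 with ONX-0914 and 3.43 CPM in M0.

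Kcnn4 was the most abundant of the 7 genes and was counted in all 6 groups. It spans chr7:24370263-24386690 on the plus strand (ENSMUSG00000054342, GRCm38). The 4 M1 libraries with ONX-0914 had 39.4, 36.3, 36.1 and 29.9 CPM, and the 4 M1 libraries without it 151, 219, 160 and 140 CPM. With the inhibitor, M1 cells thus held 21.2% of the level without it, with no overlap (log2 change -2.24 ± 0.11, SE, and -2.08 without M1 replicate 2). In M2 cells the level was 15.8, 18.2, 18.2 and 17.8 CPM with ONX-0914, against 76.4, 91.8, 82.2 and 78.2 CPM without it. The M2 change (log2 -2.23 ± 0.115) was close to that in M1, and again every library with the inhibitor lay below every library without it. M0 cells had 27.4, 31.2, 26.8 and 23.8 CPM with ONX-0914 and 46.4, 50.5, 53.8 and 46.0 CPM without it. These groups were also separate, with a smaller difference (log2 change -0.85 ± 0.11). The order of the group means ran from M1 through M2, M0, M1 with ONX-0914 and M0 with ONX-0914 to M2 with ONX-0914, and M1 with ONX-0914 overlapped with M0 with ONX-0914.

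Kcnn4 rose with both kinds of polarization in the absence of the inhibitor. It averaged 168 ± 35.5 CPM in M1 and 49.2 ± 3.65 CPM in M0 (SD, n = 4 each; log2 change 1.77 ± 0.107, edgeR adjusted p = 2.2e-14), and the log2 change was 1.62 without M1 replicate 2. In M2 it averaged 82.2 ± 6.86 CPM (log2 change 0.74 ± 0.106 over M0, adjusted p = 2.42e-06). With the inhibitor in both groups, the M1 mean was 35.4 ± 3.99 CPM and the M0 mean 27.3 ± 3.05 CPM, a log2 change of 0.38 (adjusted p = 0.00415) between groups that overlapped. That call was lost when libraries were scaled by total counts alone (log2 change 0.02, adjusted p = 0.85). With that scaling the median log2 change of all genes in this comparison was -0.39, beside -0.036 with TMM. With the inhibitor in both groups, M2 cells had less Kcnn4 than M0 cells, at 17.5 ± 1.18 CPM and 27.3 ± 3.05 CPM (log2 change -0.64 ± 0.117, adjusted p = 7.04e-05). The direction of M2 over M0 was therefore opposite with and without ONX-0914. That difference between directions was not tested, since it holds the inhibitor comparison that chose the gene.

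Trpm2, the other cation channel among the 7, went against the common direction in 1 state. It spans chr10:77907722-77970563 on the minus strand (ENSMUSG00000009292). In M0 cells it was higher with ONX-0914, at 7.03, 8.12, 8.13 and 5.97 CPM, against 3.09, 3.53, 3.48 and 3.64 CPM in M0 without it. All 4 libraries with the inhibitor lay above all 4 without it (log2 change 1.09 ± 0.176), so "suppressed by the inhibitor" does not describe this gene in M0 cells. In M1 cells it was lower, at 0.55, 0.78, 0.474 and 0.83 CPM with ONX-0914 and 1.27, 2.77, 0.924 and 1.45 CPM without it. The M1 groups did not overlap, but the highest value was that of replicate 2, and without that library the log2 change of -1.26 ± 0.285 became -0.88. In M2 cells Trpm2 had 0.955, 0.854, 0.894 and 1.24 CPM with ONX-0914 and 1.06, 0.95, 1.34 and 1.16 CPM without it. Those values overlapped (log2 change -0.20 ± 0.258).

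Trpm2 fell with polarization whether or not the inhibitor was present. M1 cells had 1.6 ± 0.807 CPM and M0 cells 3.43 ± 0.242 CPM (log2 change -1.12 ± 0.216, adjusted p = 4.65e-05; -1.50 without M1 replicate 2). M2 cells had 1.13 ± 0.168 CPM (log2 change -1.60 ± 0.215 over M0, adjusted p = 9.59e-07). Between groups that both had ONX-0914 the differences were -3.47 ± 0.231 for M1 (0.659 ± 0.173 and 7.31 ± 1.03 CPM, adjusted p = 1.89e-13) and -2.88 ± 0.21 for M2 (0.986 ± 0.175 and 7.31 ± 1.03 CPM, adjusted p = 1.11e-11). The means ran from M0 with ONX-0914 through M0, M1, M2 and M2 with ONX-0914 to M1 with ONX-0914. The M1, M2 and M2 with ONX-0914 libraries overlapped their neighbours in that order.

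Other channels of the same families were examined from lists that were drawn up with earlier results of these data known. Of 21 tested potassium and calcium channel genes other than Kcnn4, 14 fell and 3 rose with ONX-0914 in M1 cells, beside 44.3% of all tested genes called in either direction. The median log2 change of the list was -0.32 in M1, where that of all genes was -0.081. P2rx7, the ATP-gated channel linked to inflammasome activation, fell to 53.1 ± 2.67 CPM in M1 with ONX-0914, against 106 ± 3.27 CPM in M1 (log2 change -1.0, adjusted p = 6.78e-14). Kcnk13, a two-pore-domain potassium channel, rose to 5.24 ± 0.679 CPM in M1 with ONX-0914, against 2.54 ± 0.211 CPM in M1 (log2 change 1.05, adjusted p = 1.12e-06). In M2 cells 9 of the 21 fell and 2 rose, beside 36.4% of all genes called, among them P2rx7 (log2 change -0.66, adjusted p = 3.41e-10) and Kcnk6, another two-pore-domain channel (-0.63, adjusted p = 1.77e-08). In M0 cells 5 fell and 0 rose (8 and 1 when M1 replicate 2 was left out of the common fit), beside 21% of all genes called, including Kcnk6 (-0.52, adjusted p = 1.2e-06) and the proton channel gene Hvcn1 (-0.45, adjusted p = 6.54e-07). Among the closest relatives of Kcnn4, Kcnn2 had 1 count in all 24 libraries and Kcnn1 had 79. Kcnn3 averaged 0.0300 CPM in M1 with ONX-0914, 0.0317 CPM in M1, 4.2 CPM in M2 with ONX-0914, 5.22 CPM in M2, 1.3 CPM in M0 with ONX-0914 and 1.75 CPM in M0, and passed no test with the inhibitor (adjusted p = 0.946 in M1, 0.209 in M2 and 0.239 in M0).

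Of 15 tested TRPM and TRPV channels and enzymes of ADP-ribose and NAD other than Trpm2, 8 fell and 0 rose with ONX-0914 in M1 cells (4 and 0 with the libraries of that comparison alone). In M2 cells 6 fell and 1 rose, and in M0 cells 4 fell and 1 rose. The shares called were 53.3% in M1, 46.7% in M2 and 33.3% in M0, beside 44.3%, 36.4% and 21% of all genes. Trpm4, a channel for monovalent cations that calcium opens, fell to 56.0 ± 3.4 CPM in M1 with ONX-0914, against 93.5 ± 13.5 CPM in M1 (log2 change -0.74, adjusted p = 7.61e-09). It also fell in M2 (-0.33, adjusted p = 0.00226) and in M0 (-0.40, adjusted p = 0.00117). Trpm7, a channel fused to a kinase, averaged 108 CPM in M1 with ONX-0914 and 90.1 CPM in M1 and did not pass the test in M1, M2 or M0 (adjusted p = 0.135, 0.387 and 0.606). Cd38, an enzyme that makes ADP-ribose from NAD, was lower in M1 cells with ONX-0914, at 201 ± 13.9 CPM against 301 ± 79.9 CPM in M1 (log2 change -0.59, adjusted p = 0.00041). It was higher in M2 cells with ONX-0914 (9.52 ± 0.534 CPM against 5.87 ± 1.31 CPM in M2; log2 change 0.70, adjusted p = 0.00322) and in M0 cells with it (10.8 ± 0.673 CPM against 7.41 ± 0.589 CPM in M0; log2 change 0.55, adjusted p = 0.023). Bst1, a related enzyme, fell in M2 (-0.54, adjusted p = 1.13e-06) and in M0 (-0.43, adjusted p = 7.51e-05).

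Htr2b was counted mainly in M2 and M0 cells without the inhibitor. It spans chr1:86099026-86111970 on the minus strand (ENSMUSG00000026228). M2 libraries with ONX-0914 had 2.05, 1.21, 2.04 and 1.19 CPM and M2 libraries without it 8.99, 10.5, 10.1 and 9.26 CPM. The level with the inhibitor was 16.8% of that without it (log2 change -2.57 ± 0.153), and the groups were far apart. In M0 cells the gene had 2.7, 2.41, 2.56 and 2.09 CPM with ONX-0914 and 11.7, 10.3, 9.37 and 10.8 CPM without it, again with no overlap (log2 change -2.11 ± 0.142). M1 cells had 0.75, 0.6, 0.83 and 0.711 CPM with ONX-0914 and 1.15, 2.01, 1.62 and 1.38 CPM without it. There the groups were separate at a low level, with 51 counts over the M1 libraries with ONX-0914 and 97 over those without (log2 change -1.08 ± 0.236, and -0.93 without M1 replicate 2).

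Htr2b fell in M1 cells, to 1.54 ± 0.367 CPM against 10.5 ± 0.961 CPM in M0 (log2 change -2.78 ± 0.16, adjusted p = 8.33e-15; -2.92 without M1 replicate 2). M2 cells had 9.7 ± 0.698 CPM, which overlapped with M0 and did not pass the test (log2 change -0.12 ± 0.124, adjusted p = 0.488). With ONX-0914 in both groups, M1 cells again had less than M0 cells, at 0.723 ± 0.0959 and 2.44 ± 0.263 CPM (log2 change -1.74 ± 0.209, adjusted p = 2.88e-08). M2 cells with ONX-0914, at 1.62 ± 0.489 CPM, also had less than M0 cells with it (log2 change -0.58 ± 0.175, adjusted p = 0.00854). The order of the means was M0, M2, M0 with ONX-0914, M2 with ONX-0914, M1 and M1 with ONX-0914. M0 and M2 overlapped, as did M2 with ONX-0914 and M1.

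The Htr2b gene lies inside the span of Psmd1, which encodes a base subunit of the proteasome's regulatory particle and runs on the opposite strand, and their exons share 252 bases. Psmd1 moved the other way with the inhibitor. It had 406, 400, 403 and 399 CPM in M1 with ONX-0914, against 180, 164, 175 and 167 CPM in M1 (log2 change 1.23, adjusted p = 1.28e-17). The rise was of similar size in M2 cells, with 332, 327, 326 and 333 CPM with ONX-0914 and 118, 120, 112 and 116 CPM without it (1.50, adjusted p = 2.28e-19). In M0 cells it had 270, 257, 239 and 270 CPM with ONX-0914, against 111, 112, 113 and 110 CPM without it (1.22, adjusted p = 7.3e-17). Whether the counting used strand is not stated in the labels used here, and reads in the shared bases could have come from either gene. Among other serotonin receptors, Htr2a rose with ONX-0914 in M1 cells, at 9.83 ± 1.29 CPM against 7.05 ± 1.58 CPM in M1 (log2 change 0.47, adjusted p = 0.00756), and did not pass the test in M2 (-0.079, adjusted p = 0.658) or M0 (adjusted p = 1). Htr7 stayed at or below 1.71 CPM on average in each group. Of 11 tested genes of serotonin and other amine signalling other than Htr2b, 3 fell and 1 rose in M1 (1 fell and 1 rose with total counts alone), 0 fell and 1 rose in M2, and 2 fell and 0 rose in M0. The shares of 36.4% in M1, 9.09% in M2 and 18.2% in M0 were each below those of all genes (44.3%, 36.4% and 21%). Hrh2, a histamine receptor, fell in M1 with ONX-0914 (6.26 ± 0.226 CPM against 10.6 ± 1.01 CPM in M1; log2 change -0.75, adjusted p = 0.000786). Adra1a, an adrenergic receptor, fell in M0 with ONX-0914 (14.0 ± 1.19 CPM against 20.3 ± 0.154 CPM in M0; -0.54, adjusted p = 2.26e-05).

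Fpr1 was counted almost entirely in M1 cells. It spans chr17:17876471-17883940 on the minus strand (ENSMUSG00000045551). M1 libraries with ONX-0914 had 3.6, 4.92, 5.57 and 4.39 CPM, and M1 libraries without it had 22.4, 23.3, 21.7 and 25.0 CPM. The level with the inhibitor was 19.9% of that without it, with no overlap (log2 change -2.33 ± 0.156, and -2.32 without M1 replicate 2). The M2 libraries held 0 counts with ONX-0914 and 1 without it, and the M0 libraries 2 with ONX-0914 and 12 without it.

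Fpr1 averaged 23.1 ± 1.41 CPM in M1 and 0.135 ± 0.0854 CPM in M0 (log2 change 7.31 ± 0.251, and 7.31 without M1 replicate 2). Where both groups had ONX-0914, 322 counts in M1 and 2 in M0 gave a ratio of 196 (counting interval 53.8 to 1620). Fpr1 passed the filter on low counts through its M1 libraries, with and without ONX-0914, so these comparisons of M1 with M0 are given with no test. M2 cells had 1 count and M0 cells 12, with M0 higher by a ratio of 11.9 (counting interval 1.77 to 511, adjusted p = 0.012). Without M0 replicate 4 that call was lost (adjusted p = 0.0627). With ONX-0914, M2 had 0 counts and M0 had 2, and the test was not passed (adjusted p = 0.206). These intervals cover counting error only.

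Fpr2, a related receptor of broader ligand range, begins 3884 bases beyond Fpr1 on the opposite strand and followed the same groups. It had 39.1, 42.3, 41.3 and 41.8 CPM in M1 with ONX-0914, against 107, 106, 101 and 111 CPM in M1, with no overlap (log2 change -1.37 ± 0.0726, adjusted p = 1.78e-13). M0 cells had 0.152 CPM of it with ONX-0914 and 0.147 CPM without it, and M2 cells 0 counts with ONX-0914 and 0.0485 CPM without it. How the authors' counting divided reads between the similar sequences of the formyl peptide receptor family is not stated in the labels used here. Of 18 tested chemoattractant receptor genes other than Fpr1, 11 fell and 1 rose with ONX-0914 in M1, 9 fell and 1 rose in M2, and 4 fell and 0 rose in M0. The share called was 66.7% in M1, 55.6% in M2 and 22.2% in M0, and that of all genes 44.3%, 36.4% and 21%, so the M0 share was near that of all genes. Their median log2 change was -0.48 in M1, -0.57 in M2 and -0.071 in M0. Cmklr1, the chemerin receptor, fell in all 3 states. Its level was 38.3 ± 2.65 CPM in M1 with ONX-0914 and 110 ± 11.8 CPM in M1 (log2 change -1.52, adjusted p = 7e-14), with changes of -1.56 in M2 (adjusted p = 4.43e-13) and -1.09 in M0 (adjusted p = 2.66e-09). Gpr84, a receptor for medium-chain fatty acids, fell in M1 with ONX-0914 (4.2 ± 0.666 CPM against 13.3 ± 3.6 CPM in M1; -1.66, adjusted p = 1.07e-06). C5ar1, the complement C5a receptor, fell in M2 with ONX-0914 (6.91 ± 1.1 CPM against 16.5 ± 2.09 CPM in M2; -1.26, adjusted p = 2.8e-08), and C3ar1, the C3a receptor, in M0 (380 ± 12.4 CPM against 530 ± 12.2 CPM in M0 without it; -0.48, adjusted p = 1.01e-08).

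**Figure D2:**
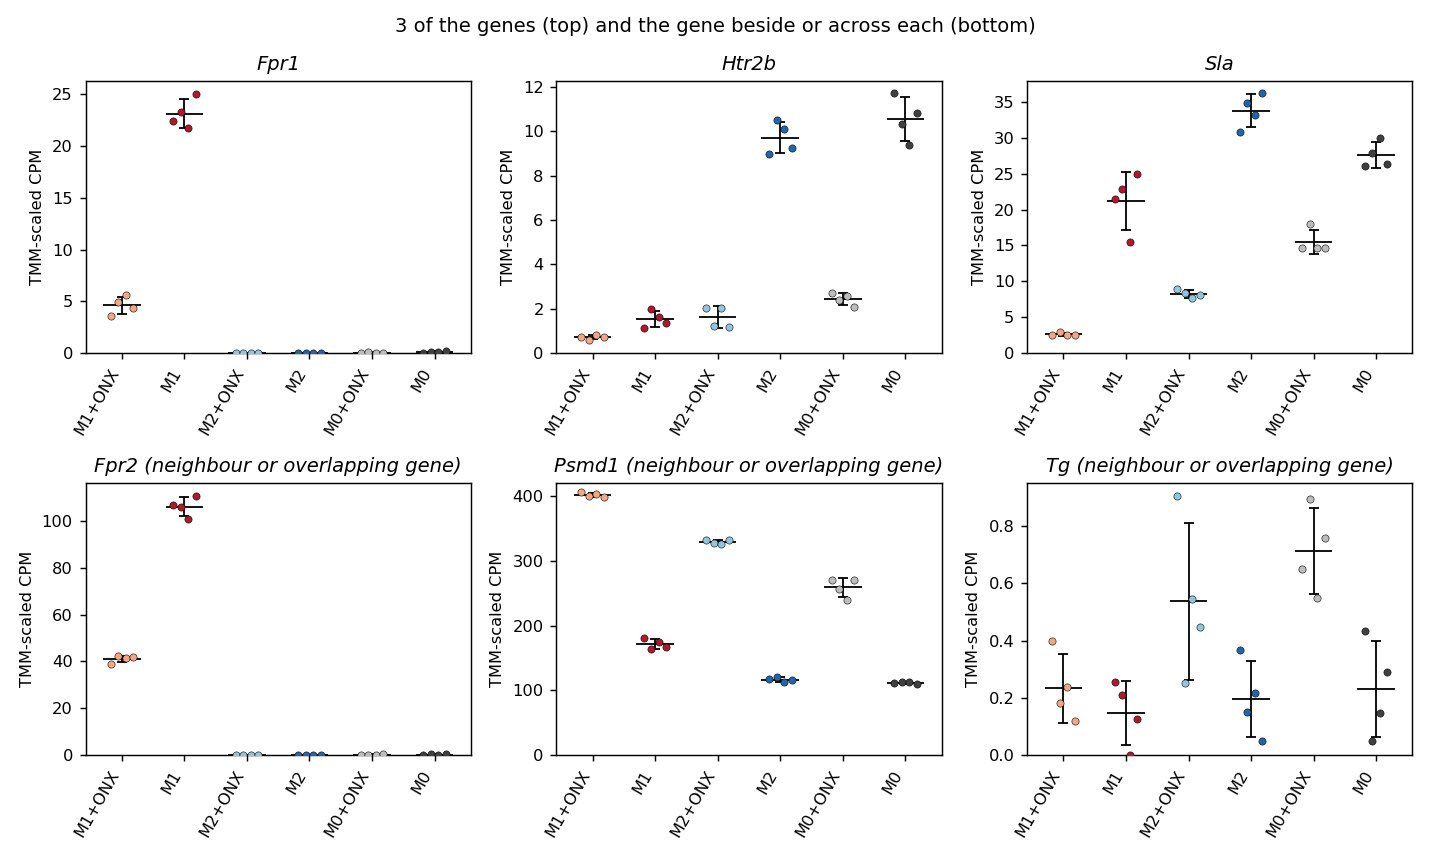
Levels in CPM (vertical axes, own scale per panel) of Fpr1, Htr2b and Sla (top) and of Fpr2, Psmd1 and Tg, the gene beside or across each (bottom), in the 6 groups. Points are libraries, long bars means and error bars SD (n = 4). Fpr2 has its levels in the same groups as Fpr1, and Psmd1 averaged 402 CPM in M1 with ONX-0914 and 172 CPM in M1, where Htr2b is lower with the inhibitor.

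Sla, the SLAP adaptor gene, had the largest fold difference of the 7 genes in M1 cells. It spans chr15:66780819-66831829 on the minus strand (ENSMUSG00000022372). M1 libraries with ONX-0914 had 2.55, 3.0, 2.49 and 2.49 CPM, and those without it 21.5, 22.8, 15.5 and 25.0 CPM. The level with the inhibitor was 12.5% of that without it, the lowest such value but 13 among the 14692 tested genes (log2 change -3.00 ± 0.132, and -2.97 without M1 replicate 2). M2 cells had 8.97, 8.39, 7.7 and 8.09 CPM with ONX-0914 and 30.8, 34.9, 33.2 and 36.2 CPM without it, with no overlap (log2 change -2.03 ± 0.107). M0 cells had 14.7, 18, 14.6 and 14.7 CPM with ONX-0914 and 26.1, 27.9, 30.0 and 26.4 CPM without it. These were also separate, and replicate 2 was the highest of the M0 libraries with the inhibitor (log2 change -0.83 ± 0.1).

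Sla fell in M1 cells, to 21.2 ± 4.04 CPM against 27.6 ± 1.79 CPM in M0 (log2 change -0.38 ± 0.1, adjusted p = 0.00141; -0.42 without M1 replicate 2). M2 cells had more, at 33.8 ± 2.33 CPM (log2 change 0.29 ± 0.0961, adjusted p = 0.0182). That call was lost with total counts alone (adjusted p = 0.0528) and without M0 replicate 1 (0.0548), M0 replicate 4 (0.0517), M2 replicate 2 (0.0586) or M2 replicate 4 (0.0609), with log2 changes of 0.24 to 0.27. Where both groups had ONX-0914, Sla was lower in M1 cells, at 2.63 ± 0.246 CPM against 15.5 ± 1.65 CPM in M0 (log2 change -2.56 ± 0.133, adjusted p = 7.49e-16). It was likewise lower in M2 cells with ONX-0914, at 8.29 ± 0.539 CPM (log2 change -0.90 ± 0.11 over M0 with ONX-0914, adjusted p = 1.67e-07). Its M2 over M0 direction was thus opposite with and without the inhibitor, a difference that was not tested. Group means ran from M2 through M0, M1, M0 with ONX-0914 and M2 with ONX-0914 to M1 with ONX-0914, and only M1 and M0 with ONX-0914 overlapped between neighbours.

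Sla lies inside the span of Tg, the thyroglobulin gene, on the opposite strand, and the annotated exons share 0 bases. Tg had 168 counts in all 24 libraries and was higher with ONX-0914 in M0 (log2 change 1.59, adjusted p = 0.0189) and M2 (1.42, adjusted p = 0.0349), and in M1 it did not pass the test (adjusted p = 0.437). The paralogue Sla2 had 31 counts in all. Of 25 tested genes of Src-family kinases, Cbl ligases, phosphatases and adaptors other than Sla, 18 fell and 1 rose with ONX-0914 in M1. In M2 cells 14 fell and 4 rose, and in M0 cells 6 fell and 2 rose (11 and 3 when M1 replicate 2 was left out of the common fit). With the libraries of the comparison alone, 12 fell and 1 rose in M1. By the main counts, 76% of the list was called in M1, 72% in M2 and 32% in M0, beside 44.3%, 36.4% and 21% of all genes. The median log2 change was -0.30 in M1, -0.21 in M2 and -0.12 in M0, beside -0.081, -0.0012 and -0.00082 over all genes. Fgr, a Src-family kinase of myeloid cells, fell to 20.7 ± 0.78 CPM in M1 with ONX-0914, against 64.6 ± 7.95 CPM in M1 (log2 change -1.64, adjusted p = 2.1e-13). It also fell in M2 with ONX-0914 (8.58 ± 0.75 CPM against 16.8 ± 2.17 CPM in M2; -0.97, adjusted p = 5.55e-08). Ptpn6, the phosphatase SHP-1, fell in M1 (-0.86, adjusted p = 2.48e-13), and Fyn, another Src-family kinase, in M2 (-0.94, adjusted p = 7.53e-10). In M0 cells the kinase gene Src fell (-0.51, adjusted p = 9.73e-05).

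Slco2b1 was a gene of M2 cells in these data. It spans chr7:99657804-99711340 on the minus strand (ENSMUSG00000030737). M2 libraries with ONX-0914 had 1.38, 1.41, 1.54 and 0.794 CPM and those without it 6.33, 5.35, 6.5 and 4.87 CPM. All libraries with the inhibitor lay below all those without it (log2 change -2.17 ± 0.252). M0 cells had 0.14, 0.142, 0.32 and 0 CPM with ONX-0914 and 0.434, 0.343, 0.773 and 0.373 CPM without it. These groups did not overlap either, on 13 counts with ONX-0914 and 41 without it (log2 change -1.62 ± 0.495, and -2.27 without replicate 3 of M0 with ONX-0914). M1 cells had 0 counts with ONX-0914 and 1 without it, and no fold is given.

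Slco2b1 averaged 5.76 ± 0.781 CPM in M2 and 0.481 ± 0.198 CPM in M0 (log2 change 3.58 ± 0.29). With ONX-0914 in both groups it was also higher in M2, at 1.28 ± 0.332 CPM against 0.15 ± 0.131 CPM in M0 (log2 change 3.03 ± 0.419). It passed the filter on low counts through M2 libraries, with and without ONX-0914, so neither comparison of M2 with M0 is tested here. It fell in M1 cells, where 1 count stood against 41 in M0, with M0 higher by a ratio of 30.2 (counting interval 5.13 to 1220, adjusted p = 4.99e-05). The fall was still called without M1 replicate 2 (adjusted p = 0.000136). With ONX-0914, M1 had 0 counts and M0 had 13 (adjusted p = 0.00294), although 1 of the M0 libraries also had 0. With the M1 group set to 3 counts, the level was 3.56-fold lower in M1. An antisense gene that shares 471 exonic bases with Slco2b1, Gm15635, had 4 counts in all.

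Of 14 tested organic anion and cation transporter genes other than Slco2b1, 2 fell and 7 rose with ONX-0914 in M2, 5 fell and 3 rose in M1, and 1 fell and 3 rose in M0. That is 64.3%, 57.1% and 28.6% of the list, beside 36.4%, 44.3% and 21% of all genes. With total counts alone, 2 fell and 3 rose in M1, and with the libraries of that comparison alone 2 fell and 4 rose. Slco4a1, a transporter of the same family, rose to 10.3 ± 1.23 CPM in M2 with ONX-0914, against 3.61 ± 0.814 CPM in M2 (log2 change 1.50, adjusted p = 0.000284). Slc22a4, a carnitine and ergothioneine transporter, rose in M1 with ONX-0914 (28 ± 1.56 CPM against 12 ± 1.88 CPM in M1; 1.22, adjusted p = 2.17e-12), in M2 (0.99, adjusted p = 4.69e-11) and in M0 (0.40, adjusted p = 0.000325). Slco3a1 fell in M1 with ONX-0914 (401 ± 22.7 CPM against 583 ± 66.5 CPM in M1; -0.54, adjusted p = 3.09e-06). Slco2a1, the prostaglandin transporter, rose in M1 (0.49, adjusted p = 0.00114) and M2 (0.45, adjusted p = 0.00822), and had a change of 0.29 in M0 that did not pass the test (adjusted p = 0.0944). Abcb1a, a P-glycoprotein gene, fell in M0 (-0.33, adjusted p = 0.00113).

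Lad1 was counted almost only in M1 cells, like Fpr1. It spans chr1:135818598-135833342 on the plus strand (ENSMUSG00000041782). M1 libraries with ONX-0914 had 0.95, 0.96, 1.72 and 1.07 CPM, and M1 libraries without it had 5.73, 7.61, 5.37 and 6.17 CPM. The groups were far apart, on 82 counts with ONX-0914 and 391 without it (log2 change -2.40 ± 0.269, and -2.29 without M1 replicate 2). In M2 cells there were 6 counts with ONX-0914 and 9 without it, and the libraries overlapped. In M0 cells there were 0 counts with ONX-0914 and 5 without it, and the libraries overlapped. With the 0 set to 3 counts, the level was 1.66-fold lower with the inhibitor.

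Lad1 averaged 6.22 ± 0.984 CPM in M1 and 0.0552 ± 0.0647 CPM in M0 (log2 change 6.59 ± 0.414, and 6.49 without M1 replicate 2). With ONX-0914 in both groups there were 82 counts in M1 and 0 in M0, which is 33.3-fold higher in M1 with the 0 set to 3 counts. Both comparisons of M1 with M0 stand without a test, since Lad1 also passed the filter through M1 libraries. M2 cells had 0.107 ± 0.0625 CPM and did not pass the test over M0 (log2 change 0.79 ± 0.791, adjusted p = 0.479). With ONX-0914, 6 counts in M2 against 0 in M0 were 2.11-fold higher with the 0 set to 3 counts (adjusted p = 0.0299). That call was lost without any 1 of the M0 libraries with ONX-0914 (adjusted p = 0.0542 to 0.0575) and without replicate 2 (0.0602) or 4 (0.0929) of M2 with ONX-0914. Of 17 tested genes of basement membrane anchoring and actin crosslinking other than Lad1, 7 fell and 2 rose in M1 with ONX-0914, 5 fell and 4 rose in M2, and 3 fell and 4 rose in M0. These are 52.9% of the list in M1, 52.9% in M2 and 41.2% in M0, where 44.3%, 36.4% and 21% of all genes were called. Actn1, an actin crosslinker, fell in M1 with ONX-0914 (314 ± 7.58 CPM against 479 ± 29.1 CPM in M1; -0.61, adjusted p = 8.27e-11), as did Lasp1, a focal adhesion protein (-0.61, adjusted p = 9.8e-09). Itga6, an integrin of hemidesmosomes, fell in M2 (-1.14, adjusted p = 6.33e-12) and M0 (-0.43, adjusted p = 0.00019). Dst, the dystonin gene, rose in M2 (1.05, adjusted p = 8.95e-11) and M0 (0.61, adjusted p = 3.92e-06).

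**Figure D3:**
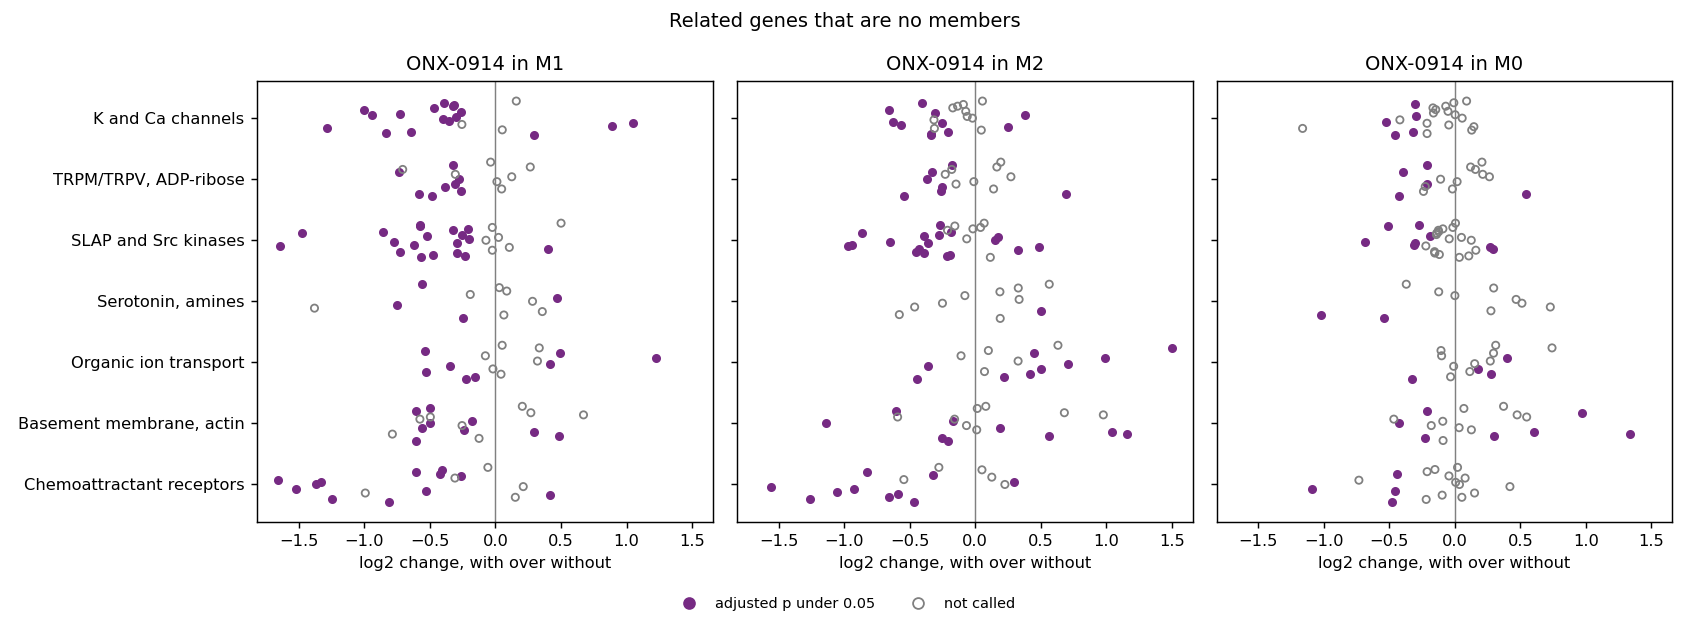
Log2 change with ONX-0914 over without it (horizontal axis) of the tested genes in the 7 lists of related genes, in M1, M2 and M0 cells. Each point is 1 gene, filled where the edgeR adjusted p was under 0.05, and genes with a group mean under 0.05 CPM are left out. Of the chemoattractant receptors 11 of 18 fell in M1, and of the organic ion transporters 7 of 14 rose in M2.

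Set side by side, the 7 genes fell into sets by the state in which they were counted. Only Kcnn4, Sla and Htr2b reached 10 counts in each library of all 6 groups. Trpm2 did so in 5 groups, Slco2b1 in M2 with ONX-0914 and M2 alone, and Lad1 and Fpr1 in M1 with ONX-0914 and M1 alone. All 7 passed the filter on low counts, the last 3 through the groups in which they were high. Per length of exons, Kcnn4 had 32.8 CPM per kb in M1, Fpr1 17.4, Sla 2.31, Lad1 1.83, Htr2b 0.722, Trpm2 0.129 and Slco2b1 0.00242. In M2, Kcnn4 had 16.1 CPM per kb, Htr2b 4.55, Sla 3.68, Slco2b1 0.967, Trpm2 0.0904, Lad1 0.0315 and Fpr1 0.00818. Across the 24 libraries, log2 CPM of Lad1 and Fpr1 varied together (Pearson r = 0.96), as did that of Sla and Htr2b (0.82), while Slco2b1 and Fpr1 ran opposite (-0.72). These values describe 6 groups of libraries that share their state and treatment.

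In M1 cells with ONX-0914, 6 of the 7 genes had all 4 libraries below all 4 M1 libraries, and Slco2b1 overlapped at 0 counts. Over all tested genes, 22.2% were separated in that way. In M2 cells the number was 4 of 7 (Kcnn4, Sla, Htr2b and Slco2b1), beside 20.5% of all genes. In M0 cells 4 of 7 were lower in all 4 libraries (the same 4 names), beside 14.6% of all genes, and Trpm2 was higher in all 4, beside 12.3%. Nothing is read from these counts, since the inhibitor comparisons chose the genes.

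**Figure D4:**
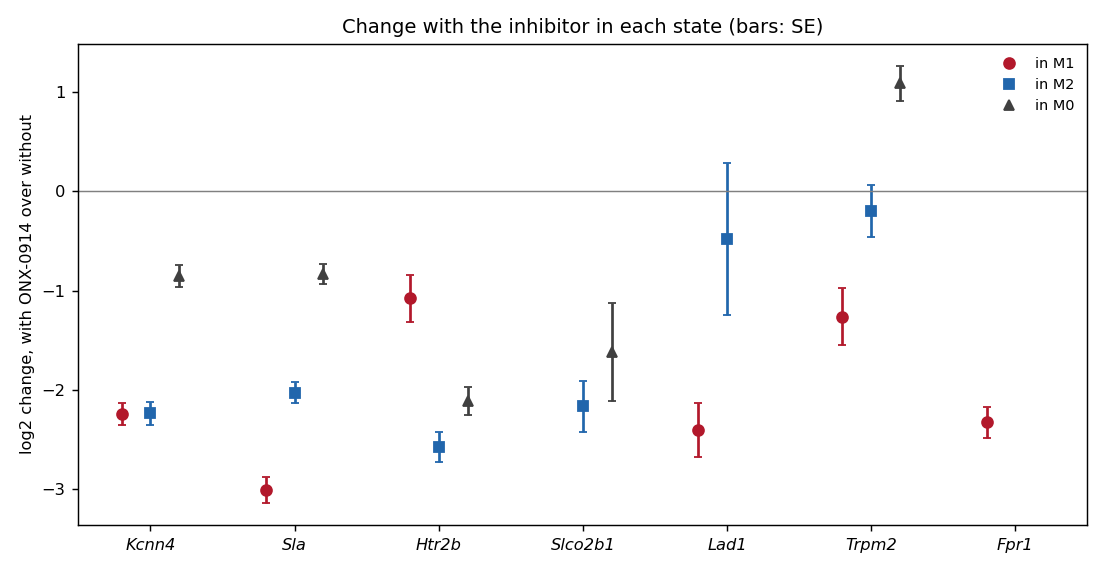
Log2 change with ONX-0914 over without it (vertical axis, bars SE) of the 7 genes in M1, M2 and M0 cells, shown as a description of values that chose the genes. A comparison in which 1 of the groups had 3 counts or fewer has no point. Kcnn4 lies at -2.24 in M1 and -2.23 in M2, and Trpm2 at 1.09 in M0.

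The polarization tests are read without Lad1 and Fpr1 in M1 over M0 and without Slco2b1 in M2 over M0, since these genes passed the filter through the polarized groups. In M1 over M0 without the inhibitor, Kcnn4 rose, beside 34.6% of all tested genes, and Sla, Htr2b, Slco2b1 and Trpm2 fell, beside 34.2%. In M2 over M0, Kcnn4 and Sla rose, beside 18.7% of all genes, and Trpm2 and Fpr1 fell, beside 17.5%. Htr2b and Lad1 did not pass that test. With ONX-0914 in both groups, Kcnn4 was again higher in M1 than in M0, beside 34.4%, and Sla, Htr2b, Slco2b1 and Trpm2 were lower, beside 37.4%. With ONX-0914, Lad1 was higher in M2 than in M0, beside 22.1%, and Kcnn4, Sla, Htr2b and Trpm2 were lower, beside 18.6%, while Fpr1 did not pass. The calls for Sla and Fpr1 in M2 over M0 without ONX-0914 were lost under alternatives given above. So were the calls with ONX-0914 for Kcnn4 in M1 over M0 and for Lad1 in M2 over M0. The M1 and M2 comparisons share their M0 libraries, and all of them share libraries with the inhibitor comparisons. With total counts in place of TMM, the median log2 change of all genes in M1 over M0 was -0.43 without ONX-0914 and -0.39 with it. Relative to those medians, Kcnn4 (1.35 without ONX-0914) remained above all-gene change, and Sla (-0.80), Htr2b (-3.19) and Trpm2 (-1.54) below it.

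**Figure D5:**
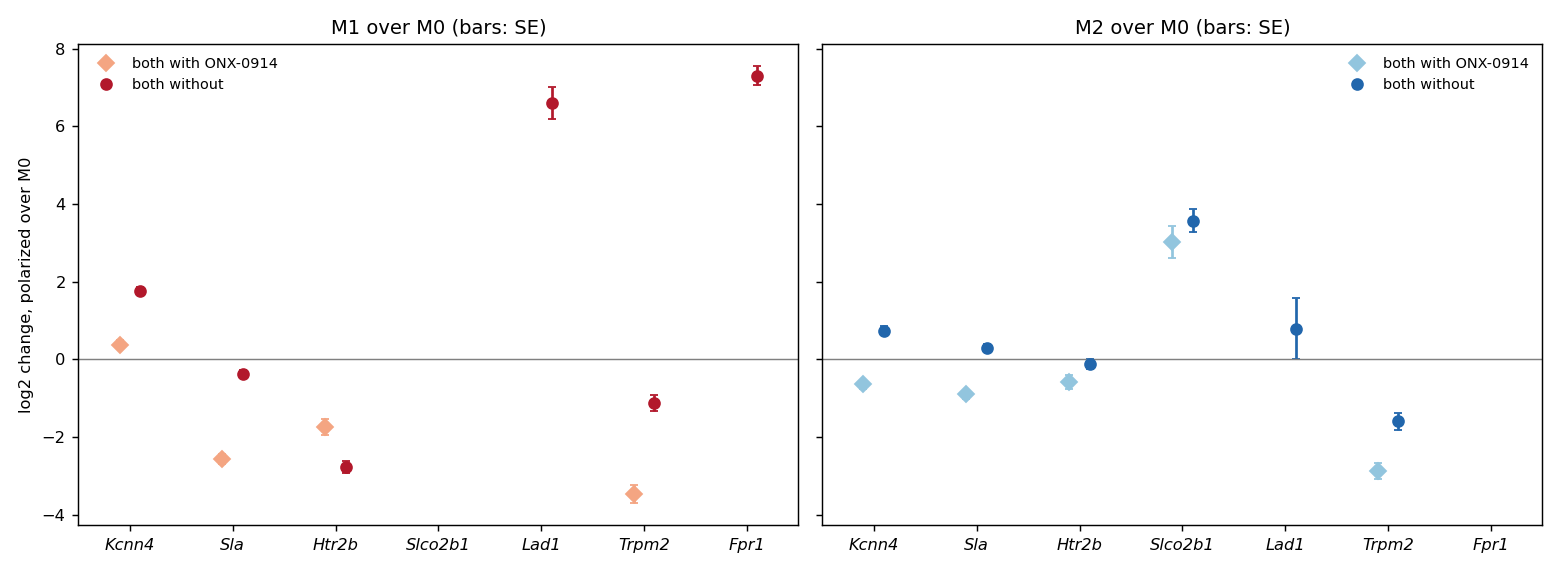
Log2 change of M1 over M0 (left) and M2 over M0 (right) for the 7 genes (vertical axis, bars SE), with ONX-0914 in both groups (diamonds) or in neither (circles). A comparison in which 1 of the groups had 3 counts or fewer has no point. Kcnn4 and Sla lie at -0.64 and -0.90 in M2 over M0 with ONX-0914 and at 0.74 and 0.29 without it.

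The genes whose levels followed each of the 7 most closely were taken from 9965 candidates by Pearson r of log2 CPM over the 24 libraries, and r describes these libraries, which share group and depth. Their changes with ONX-0914 are given with no test, since the same libraries chose them. For Kcnn4 they were Capn1, a calpain protease (r = 0.972), and Hpcal1, a neuronal calcium sensor relative (0.969). Capn1 changed by less than Kcnn4, with a log2 change of -0.51 in M1 with ONX-0914. For Sla they were Parvg, an actin-binding partner of integrin-linked kinase (0.963), and Atp6v0d1, a subunit of the vacuolar proton pump (0.953). Parvg had a log2 change with ONX-0914 of -1.71 in M1 (8.22 CPM with it and 26.8 CPM in M1), -1.10 in M2 and -0.89 in M0. Htr2b was closest to Lrp12 and Tlnrd1 (0.963 each). Slco2b1 was closest to Bcar3, an adaptor of p130Cas signalling (0.987), and Ptgir, the prostacyclin receptor (0.969). Bcar3 averaged 85.2 CPM in M2 with ONX-0914 and 174 CPM in M2 (log2 change -1.03). Lad1 was closest to Batf, a transcription factor of the AP-1 family (0.981), and Itga5, the fibronectin receptor subunit (0.979), with Batf at 25.5 CPM in M1 with ONX-0914 and 59.0 CPM in M1 (-1.21). Fpr1 was closest to Pik3ap1, an adaptor of phosphoinositide 3-kinase (0.993), and Marcksl1 (0.992), and Marcksl1 averaged 100 CPM in M1 with ONX-0914 and 307 CPM in M1 (-1.62). Trpm2 had the loosest matches, Pcp4l1 (0.922) and Igf1r, the receptor of insulin-like growth factor 1 (0.92). In M0 cells Pcp4l1 averaged 5.57 CPM with ONX-0914 and 3.38 CPM without it (log2 change 0.72), and Igf1r had a log2 change of 0.31.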

How the data were processed

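The authors deposited a table of raw read counts per Ensembl gene for the 24 libraries, in whole numbers and without normalization. Per the submitters' processing notes, FastQC 0.11.9, cutadapt 2.8, Bowtie2 2.2.5 and Picard were used with the mouse build mm10. Which tool counted reads, whether it used strand and which annotation release it used were each not given in the sources used here. GENCODE M21 (GRCm38) supplied symbols for 54409 features, positions and exon lengths, and 0.0282% of the counts fell on the 123 features with no symbol.

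The analysis used edgeR 4.0.16 in R 4.3.3. The filter filterByExpr, set to a minimum of 10 counts with the 6 groups as design, kept 14692 genes with 99.927% of the counts. After TMM scaling, 1 quasi-likelihood model with a mean per group covered all 24 libraries (18 residual degrees of freedom). The threshold was an adjusted p (Benjamini-Hochberg, over all tested genes) under 0.05. SE was obtained from the log2 change and the F statistic. Each replicate is a pool of cells, per the labels, and p-values measure the spread between replicates. Whether replicates share mice was not established here. A group with 0 counts was set to 3 counts over the group for a bound on the fold, and with 1 to 3 counts a ratio with an exact 95% interval is given. These bounds reflect counting error and no other source of error. The pipeline was tested on simulated data.

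Besides the 7 genes, the text names relatives of the same families, overlapping and nearest genes where a result turns on them, the 2 genes most alike by correlation, and, per list and inhibitor comparison, the 2 called genes of largest change with at least 5 CPM in the higher group. A result that this rule names is not reported here. The 7 genes, the lists and the rule were chosen with earlier results of these data known. Alternatives were DESeq2 1.42.0 size factors and Wald test, other filters, the libraries of a comparison alone, a replicate block and leaving out each library. Scaling by total counts was added after the data were seen.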

Additional observations from a re-analysis of the deposited data

Results flagged for a closer look

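A library was singled out where its gap to the nearest other library of its group, as a share of the group's range, passed Dixon's 95% critical value. The 7 genes and 2 library measures gave 42 and 12 sets of 4 libraries, and 8 were singled out. Chance alone singles out about 1 in 20 such sets. Sla stood at 18 CPM in replicate 2 of M0 with ONX-0914, above the other libraries of that group, and at 3 CPM in replicate 2 of M1 with ONX-0914. Lad1 stood at 1.72 CPM in replicate 3 of M1 with ONX-0914. For genes near 0, a single library with counts was enough, which applies to Slco2b1 in M1 replicate 3 (0.0578 CPM), Fpr1 in replicate 2 of M0 with ONX-0914 (0.0944 CPM) and Fpr1 in M2 replicate 3 (0.0433 CPM). M1 replicate 2 stood apart in its share of counts on mitochondrial genes (0.3%) and on the 10 most counted genes (13.1%).

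In 3 cases all libraries of a comparison moved one way in one setting and all moved the other way in another, and the difference itself was not tested. Kcnn4 had a log2 change of M2 over M0 of -0.64 with ONX-0914 and 0.74 without it. Sla had -0.90 with ONX-0914 and 0.29 without it. Trpm2 changed with ONX-0914 by -1.26 in M1 and by 1.09 in M0.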

How the results depend on the processing

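The tests of polarization for the 7 genes gave 819 values under the alternatives with the same direction and the same side of the threshold, 13 that lost the call and 0 that reversed. Those values include the comparisons of Lad1, Fpr1 and Slco2b1 that stand above without a test, from which no stability is read. A gene that dropped out of an alternative fit gave no value there, for polarization or for the inhibitor. A polarization value also needed an adjusted p. Such cases are outside these numbers. The 13 are those given above for Sla, Lad1, Fpr1 and Kcnn4, and the cause was not tested. Deviations of replicates with the same number were weakly correlated at most (r from -0.0518 to 0.0711), and 11 of 24 libraries correlated best with their own number. How many would do so by chance was not computed, so these values do not decide whether libraries of the same number share a source. With a replicate block the genes called were 10151 in M1 over M0 (10114 without the block), 5364 in M2 over M0 (5315), 10576 (10544) and 6043 (5974) with ONX-0914 in both groups, and 6558 (6514), 5390 (5345) and 3131 (3079) for ONX-0914 in M1, M2 and M0. Leaving out each library in turn gave 9809 to 10444, 4739 to 6348, 10246 to 11112, 5367 to 7021, 5968 to 6804, 4654 to 6384 and 2463 to 4340 in the same order. The share of higher calls moved by over 10 percentage points with total counts in place of TMM, to 25.5% (2852 higher, 8351 lower) against 50.3% (5084 higher, 5030 lower) in M1 over M0, 41.4% against 51.6% in M2 over M0, and 27.4% against 47.9% and 39.2% against 54.4% in those comparisons with ONX-0914. For ONX-0914 in M1 it was 51.4% against 37.4%, and 51.9% with the libraries of that comparison alone. Values with the inhibitor moved beyond the spread between replicates in 5 of 585 cases, all for Lad1 or Fpr1 at counts of 12 or fewer in a group. Low counts limit Slco2b1 outside M2 and Lad1 and Fpr1 outside M1.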
